A study of Drosophila melanogaster with 3 samples.

Results

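Achaete (Ac) is a proneural transcription factor of the basic helix-loop-helix class, and its binding in Drosophila embryos was examined at phyl, edl and Traf4, 3 genes carried here in a list of 22 genes of the sensory organ precursor. The 3 genes were chosen by the readout itself. Each had 6 or more summits of the authors' optimal peak list inside the gene or within 2000 bp of it, while the gene was under 20 kb long. They are 3 of 13968 annotated protein-coding genes, and 20 of the 2756 optimal summits belong to them. Their summit counts are therefore given as a description, with no test.

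Whole embryos, male and female together and aged 0 to 8 hours, came from 1 transgenic line that stably expressed Ac with GFP at its C terminus. Chromatin was sheared by sonication with a size range of 200 to 800 bp, and an antibody against GFP recovered the tagged protein. There were 3 biological replicates of this single group, and neither an untagged line nor a second condition was compared. Whether each replicate was its own embryo collection is not stated, and the SDs below may therefore reflect technical variation. A whole embryo mixes all cell types, so the cells in which a site was occupied cannot be told apart.

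Proneural proteins such as Ac and Scute (Sc) pair with Daughterless (Da) and bind short DNA words called E-boxes. They select the sensory organ precursor, the cell that divides to form an external sense organ. phyl encodes Phyllopod, an adaptor that brings the ubiquitin ligase Sina to the repressor Tramtrack so that Tramtrack is degraded. edl encodes a small protein with a SAM domain and no ETS domain, which binds the ETS factors Pointed and Yan downstream of the EGF receptor. Traf4 encodes an adaptor of the TRAF family, which acts with the kinase Misshapen in JNK signalling and with adherens junctions in the early embryo.

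The E-box preferred by Ac or Sc with Da is written here as GCAGCTG or GCAGGTG. It was found within 100 bp of 8 of the 20 summits. The 3 windows of Traf4 that hold it are printed below after the window of the highest ranked Traf4 summit, which has none. Sequences are the plus strand of the release 6 genome (dm6) of RefSeq, 201 bp centred on the summit, and capitals mark the E-box on either strand. Traf4 is transcribed from the plus strand, and positions count from its 5′ end. phyl and edl are described by position only.

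Traf4 +1955 bp, chr2L:4363780-4363980: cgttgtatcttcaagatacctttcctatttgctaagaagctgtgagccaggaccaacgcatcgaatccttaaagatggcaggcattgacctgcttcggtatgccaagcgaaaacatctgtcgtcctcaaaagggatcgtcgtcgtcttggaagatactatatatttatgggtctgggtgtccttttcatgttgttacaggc

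Traf4 +6183 bp, chr2L:4368008-4368208: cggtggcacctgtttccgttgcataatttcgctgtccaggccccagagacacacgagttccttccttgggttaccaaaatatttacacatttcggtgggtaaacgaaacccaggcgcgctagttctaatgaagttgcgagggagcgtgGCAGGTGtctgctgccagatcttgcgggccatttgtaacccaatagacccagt

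Traf4 +8261 bp, chr2L:4370086-4370286: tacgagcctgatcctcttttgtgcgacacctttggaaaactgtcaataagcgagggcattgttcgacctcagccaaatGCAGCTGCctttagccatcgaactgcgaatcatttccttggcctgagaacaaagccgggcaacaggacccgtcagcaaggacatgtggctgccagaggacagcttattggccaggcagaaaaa

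Traf4 +13269 bp, chr2L:4375094-4375294: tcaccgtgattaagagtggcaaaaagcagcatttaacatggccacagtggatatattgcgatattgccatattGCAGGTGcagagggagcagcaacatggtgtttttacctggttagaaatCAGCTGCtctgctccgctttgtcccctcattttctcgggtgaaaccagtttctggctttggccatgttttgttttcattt

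The window at +8261 bp carries GCAGCTG within the palindrome spelled in capitals, 19 bp from the summit. The window at +13269 bp holds 2 E-boxes, 1 of each form, both 24 bp from the summit and on opposite sides of it. In the window at +6183 bp the GCAGGTG form lies 51 bp from the summit.

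Few genes of this size gathered so many summits. Of the 12948 protein-coding genes under 20 kb, 10733 had no optimal summit within 2000 bp and 1812 had 1. There were 306 genes with 2 summits, 61 with 3, 26 with 4 and 6 with 5. Traf4 had 8 summits and phyl and edl had 6 each, and the fourth gene at or above the threshold was jumu with 6. These 4 genes are 0.0309% of the genes under 20 kb, a share fixed by the selection, from which nothing further is read. Of all 13968 protein-coding genes, 19.0% had at least 1 optimal summit.

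**Figure D1:**
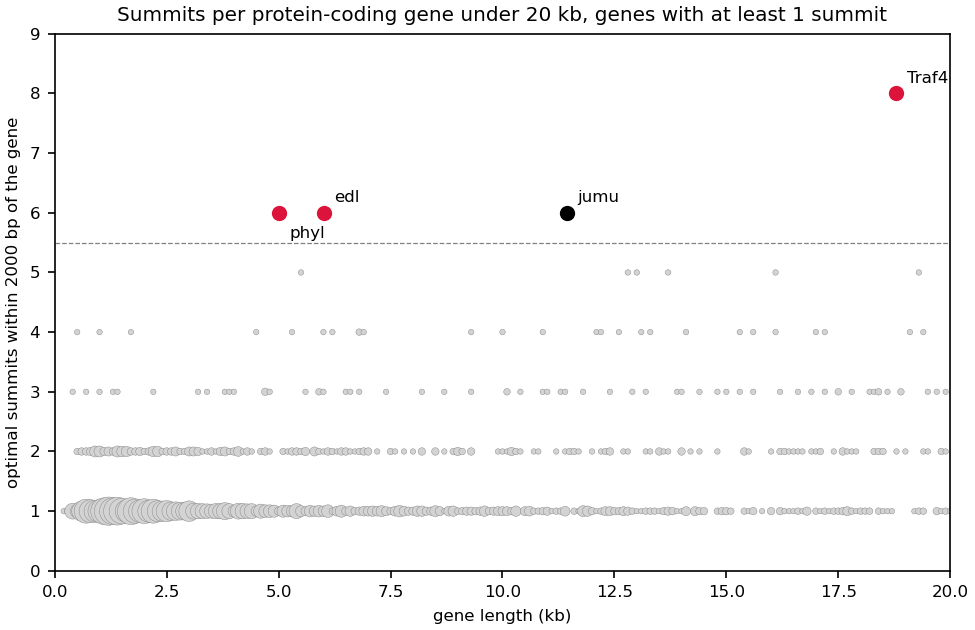
Number of optimal summits within 2000 bp against gene length in kb, for protein-coding genes under 20 kb with at least 1 summit. Grey circles pool genes of like length and grow with the number of genes, red circles are phyl, edl and Traf4, the black circle is jumu, and the dashed line separates 5 summits from 6. Traf4 stands alone at 8 summits.

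Just inside the threshold, jumu, which encodes a forkhead transcription factor, had 6 summits in 11.4 kb on 3R, all inside the gene. Its strongest summit ranked 299, 2 of the 6 summits had the E-box, and none lay at a promoter. Just outside, with 5 summits, were Bacc, CG45088, CG6191, HnRNP-K, PRAS40 and Socs36E. The sensory organ precursor gene neur, a ubiquitin ligase that acts on Notch ligands, had 4 summits in 19.1 kb. Its strongest summit ranked 159, and 3 of its 4 summits had the E-box.

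Some deposited regions are listed more than once with different summits. The 2756 optimal summits fall in 2738 distinct regions, and 36 summits (1.31%) share a region with another summit. Of the 20 summits of phyl, edl and Traf4, 8 did so, as 4 pairs. Counted by distinct regions, phyl had 4, edl had 5 and Traf4 had 7, so phyl and edl would fall under the threshold of 6 while Traf4 and jumu, with 6 regions, would stay.

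The selection used the optimal list, and that list is identical to the first 2756 entries of the pooled list when ranked by signal. Replicate lists of 30000 regions each were deposited as well. The 2756 strongest regions of each replicate are called its top regions here. Because the pooled list was made from these replicates, replicate counts are not independent of the choice. They show how the counts are spread over the 3 samples. A summit's rank in a replicate is that of the nearest replicate summit within 150 bp, and it counts as found in the top regions when any top summit lies within that distance.

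phyl had 3, 6 and 4 top regions within 2000 bp in replicates 1, 2 and 3 (4.33 ± 1.53, SD, n = 3). edl had 5, 6 and 6 (5.67 ± 0.577), and Traf4 had 7, 8 and 8 (7.67 ± 0.577). Traf4 thus reached 6 in every replicate, edl in replicates 2 and 3, and phyl in replicate 2. In replicate 1, Traf4 was the single gene under 20 kb with 6 or more top regions (0.00772% of genes). In replicate 2 there were 4 such genes (0.0309%), phyl, edl, Traf4 and neur. In replicate 3 there were 6 (0.0463%), which were Traf4 with 8, PRAS40 and Socs36E with 7 each, and edl, Pgk and neur with 6 each. jumu had 3, 4 and 4 top regions in replicates 1, 2 and 3. Summits were then required to recur in both of the other sets of top regions. Leaving out replicate 2 left 2 summits at phyl, 4 at edl and 4 at Traf4, and leaving out replicate 3 left 3, 5 and 5. Of all 2756 optimal summits, 1446 and 1668 were left in the same way.

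phyl (FBgn0013725) lies on the minus strand of 2R from 14427336 to 14432337 (dm6) and is 5002 bp long, with 1 annotated transcript of 2 exons. Its 6 summits lay within 3943 bp around the 5′ end, 4 inside the gene and 2 upstream. Its density was the highest of the 3 genes, at 0.667 summits per kb over the 9002 bp of gene and margins, and its regions covered 2117 bp or 23.5% of that span. The regions did not touch the second exon, which holds most of the coding sequence.

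The strongest phyl summit, at 14429905, was intronic, 2432 bp downstream of the start. It ranked 223 in the optimal list, and 352, 291 and 755 in replicates 1, 2 and 3 (466 ± 252, SD, n = 3), and replicate 3 had another summit within 150 bp at rank 101. A second summit in the same region (14429209 to 14430111), at 14429620, ranked 350 and carried a GCAGCTG E-box 21 bp away. Replicate 2 had a summit there at rank 249, while replicates 1 and 3 had none within 150 bp. The nearest in replicate 3, at rank 101, was 157 bp away, just beyond that limit, and the nearest in replicate 1 was 262 bp away. The region as a whole was overlapped by regions of rank 352, 249 and 101 in replicates 1, 2 and 3. It recurred in every replicate, and the second summit position was matched within 150 bp in replicate 2 only.

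Upstream of phyl a region from 14433089 to 14433728 also held a pair of summits. The one at 14433363, 1026 bp upstream of the start, ranked 461 and had a GCAGCTG E-box 34 bp away. It ranked 314 in replicate 2 and 373 in replicate 3, and replicate 1 had no summit within 150 bp, the nearest being 211 bp away. The other, at 14433563, ranked 987 and lay 332 bp from the start of the noncoding gene lncRNA:CR45277. It ranked 1298, 860 and 373 in replicates 1, 2 and 3 (844 ± 463), and in replicate 3 the same summit matched both positions.

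The 2 remaining phyl summits ranked lower in the optimal list. The intronic summit at 14431097 ranked 1592 in the optimal list, 2083 in replicate 1 and 1476 in replicate 2. In replicate 3 its nearest summit was 160 bp away at rank 3384. The summit at the phyl start itself (14432320, 17 bp downstream of it) ranked 1833 in the optimal list, 1100 in replicate 2 and 9257 in replicate 3, and replicate 1 had none within 150 bp. Replicate 3 also had a summit of rank 727 within 150 bp, at 14432205. The start of phyl was thus the lowest ranked of its 6 sites in the optimal list but not in replicate 2.

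edl (FBgn0023214) lies on the minus strand of 2R from 18667527 to 18673536 and is 6010 bp long, with 1 transcript of 2 exons. Its 6 summits spanned 3270 bp around the 5′ end, with 3 in the intron, 2 at the promoter and 1 further upstream. The density was 0.599 summits per kb over 10010 bp, of which its regions covered 1559 bp (15.6%).

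The highest ranked summit of all 20 was in the edl intron at 18672302, 1234 bp downstream of the start. It ranked 110 in the optimal list, and 570, 77 and 60 in replicates 1, 2 and 3 (236 ± 290), with a GCAGCTG E-box 20 bp from the summit. Its region, from 18672053 to 18672626, held a second summit at 18672503 with a GCAGCTG E-box 1 bp away. That one ranked 888 in the optimal list and 1787, 635 and 871 in the replicates (1098 ± 609). Both positions of this pair were found in all 3 replicates, unlike those of the phyl pairs.

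Another intronic summit, at 18671714, ranked 628 in the optimal list and 213, 896 and 1545 in replicates 1, 2 and 3 (885 ± 666), so it was the site that stood highest in replicate 1. Both promoter summits lay just upstream of the edl start. The one at 18673645 (109 bp upstream) ranked 645 in the optimal list and 631, 587 and 1130 in the replicates (783 ± 302), and the one at 18673852 (316 bp upstream) ranked 1714 in the optimal list and 2394, 1730 and 4919 (3014 ± 1683). The first was among the top regions of every replicate, and the second missed those of replicate 3.

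The most distal of the 6 edl summits, 1448 bp upstream at 18674984, had a GCAGCTG E-box 71 bp away and ranked 1454. In replicates 1, 2 and 3 it ranked 2764, 1095 and 12018 (5292 ± 5884) by the nearest summit. Replicate 3 had a second summit within 150 bp, at 18674854 with rank 1858, so the low rank there depends on which of the 2 is taken. Beyond 2000 bp edl had 2 more optimal summits. One, 3017 bp upstream at 18676553, ranked 1883 and was a top region in each replicate, at 2453, 2236 and 1322 (2004 ± 600). The other, at 18662402, ranked 2470 and lay 5125 bp past the 3′ end, 854 bp from the shared start of Gint3 and CG42306, so it cannot be tied to edl by position.

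Traf4 (FBgn0026319) lies on the plus strand of 2L from 4361925 to 4380716 and is 18792 bp long. It has 2 annotated transcripts, 1 from the 5′ end and 1 from an internal start at 4371990. All 8 summits were inside the gene, between position 4363202, where the second exon of the long transcript ends, and 4378906, where its last exon starts. They spanned 11314 bp, with a density of 0.351 summits per kb over 22792 bp, of which the regions covered 2622 bp (11.5%). No optimal summit lay at the 5′ end of Traf4 itself, where the nearest was 1955 bp downstream.

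The strongest Traf4 summit, at 4363880, ranked 272 in the optimal list, 138 in replicate 2 and 137 in replicate 3, and replicate 1 had no summit within 150 bp, the nearest lying 188 bp away. It shared a region (4363671 to 4364291) with the summit at 4364083, which ranked 485 in the optimal list and 1402, 413 and 500 in replicates 1, 2 and 3 (772 ± 548). Both lay within 500 bp of a start of lncRNA:CR45363, a noncoding gene on the opposite strand, at 372 bp and 169 bp. This noncoding gene runs from 4361689 to 4371303, overlaps the first part of Traf4 and contains 6 of the 8 summits. Sites in the overlap cannot be assigned to either gene by position.

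The summit with 2 E-boxes, at 4375194, ranked 314 in the optimal list and 2335, 176 and 191 in replicates 1, 2 and 3 (901 ± 1242). It lay 3204 bp past the internal start, and was far lower in replicate 1 than in the others. The summit at 4370186, with the palindromic E-box, ranked 1082 in the optimal list, 1020 in replicate 2 and 470 in replicate 3. In replicate 1 the nearest summit was 171 bp away at rank 2023, just beyond the 150 bp used for matching. The third Traf4 site with an E-box, at 4368108, ranked 1437 in the optimal list and 916, 2215 and 1342 (1491 ± 662), and was a top region in each replicate.

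One Traf4 summit lay at the internal start. It was at 4371762, 228 bp upstream of 4371990, and ranked 864 in the optimal list and 1994, 1074 and 658 in replicates 1, 2 and 3 (1242 ± 684). The summit at 4365154 ranked 1387 in the optimal list and 1029, 1454 and 5498 (2660 ± 2467). The weakest of the 20 summits, at 4369000, ranked 2728, close to the end of the optimal list. Its replicate ranks were 27474, 2015 and 14024 (14504 ± 12736), and another summit of replicate 3 within 150 bp ranked 3227. It was found in the top regions of replicate 2 only.

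**Figure D2:**
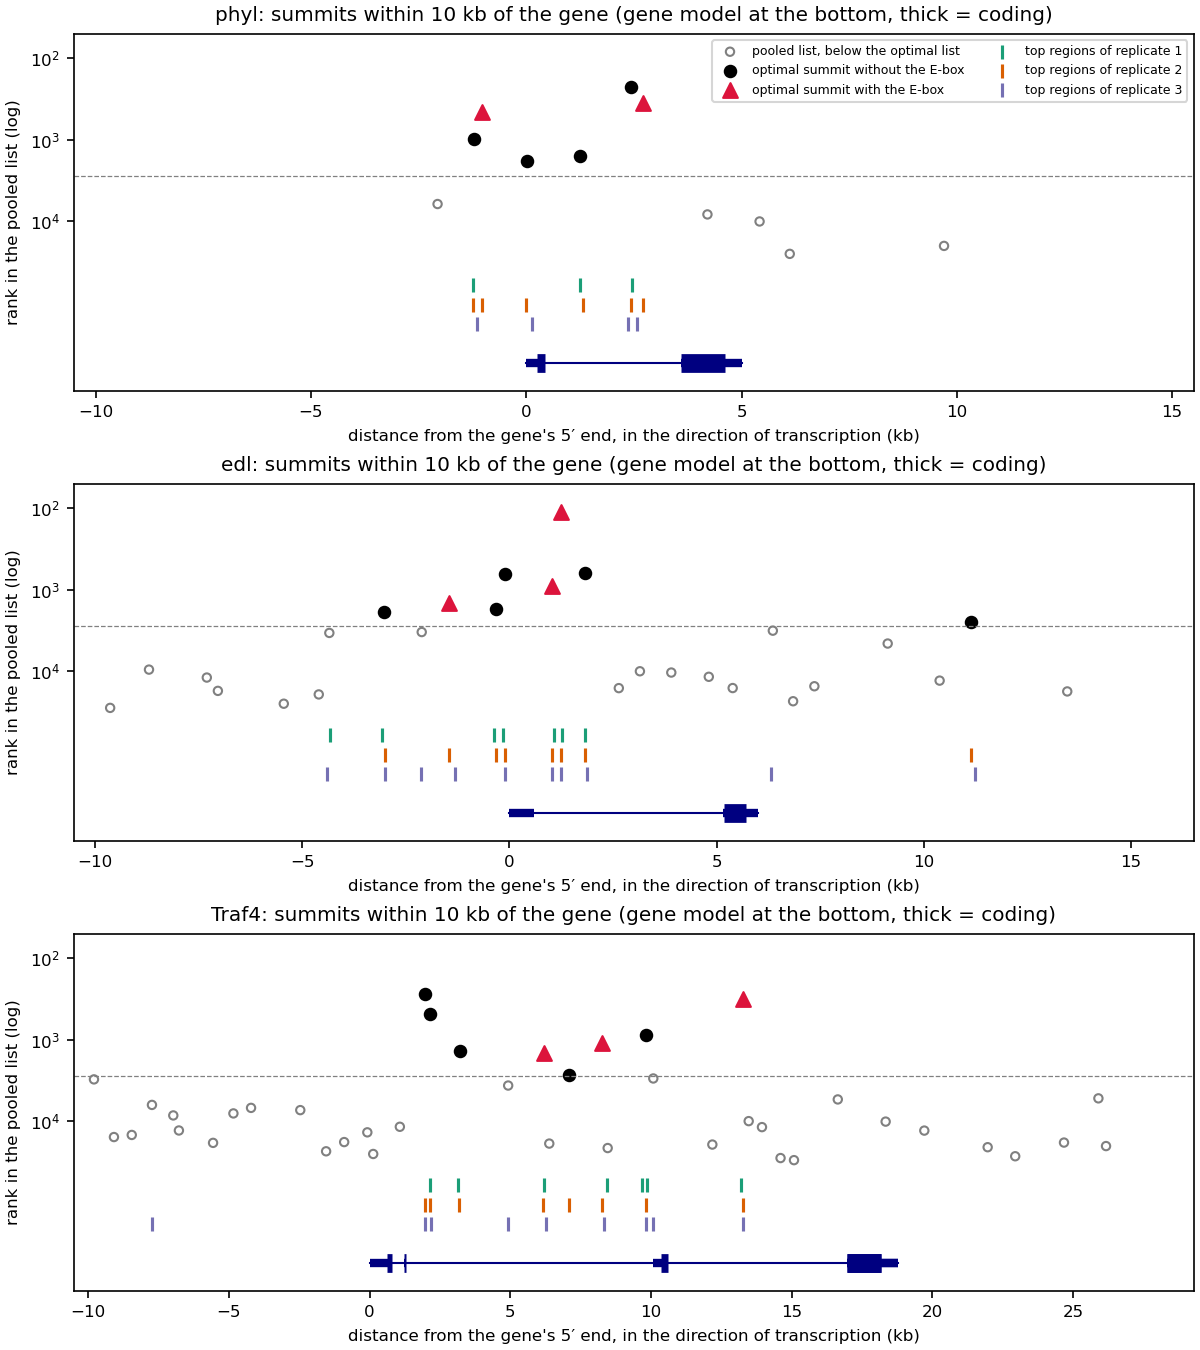
Summits within 10000 bp of phyl, edl and Traf4, placed by distance in kb from the gene's 5′ end in the direction of transcription, against rank in the pooled list on a log scale. Red triangles are optimal summits with the E-box, black circles optimal summits without it, grey rings pooled summits below the optimal list, coloured ticks the top regions of the 3 replicates, and the blue drawing is the gene with coding sequence thick. The optimal summits of phyl and edl gather around the 5′ end, and the 8 of Traf4 lie within its long intron and at its internal start.

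Across the 20 summits, 13 were in the top regions of replicate 1, 20 in those of replicate 2 and 15 in those of replicate 3, a mean of 80% ± 18 (SD, n = 3). Over all 2756 optimal summits the mean was 75.3% ± 7.44. Both means come from the same 3 replicates. In replicates 1, 2 and 3 the shares were 65%, 100% and 75%, against 71%, 83.9% and 70.9% of all optimal summits. The share of the 20 was thus lower in replicate 1 and higher in replicates 2 and 3. Of the 20 summits, 10 (50%) recurred in all 3 sets of top regions, 8 in 2 sets and 2 in 1. Over the optimal list, 47.5% were in all 3, so the summits of these genes recurred about as often as optimal summits in general. By gene, the number in all 3 was 2 of 6 for phyl, 4 of 6 for edl and 4 of 8 for Traf4.

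Replicate 2 stood closest to the optimal list at these genes. In its full list every one of the 20 summits had a counterpart within 150 bp, while 5 had none in replicate 1 and 2 had none in replicate 3. Of all 2756 optimal summits, 2578, 2733 and 2667 had a counterpart in replicates 1, 2 and 3. The 20 summits were thus matched less often than the whole list in replicates 1 and 3. The median distance to the counterpart was 1 bp in replicate 2 (20 summits), against 45 bp in replicate 1 (15 summits) and 49 bp in replicate 3 (18 summits). Over all optimal summits the medians were 24, 11 and 19 bp in replicates 1, 2 and 3. A counterpart within 25 bp was found for 90% of the matched summits in replicate 2, 40% in replicate 1 and 38.9% in replicate 3, against 71.9%, 51.9% and 57.9% of all matched optimal summits. At these loci the optimal positions were thus nearly those of replicate 2, more so than over the whole list. Replicate 2 also had the most regions at a q value of at most 0.05, at 9954, against 3453 in replicate 1 and 7898 in replicate 3, and its part in the positions was not tested.

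**Figure D3:**
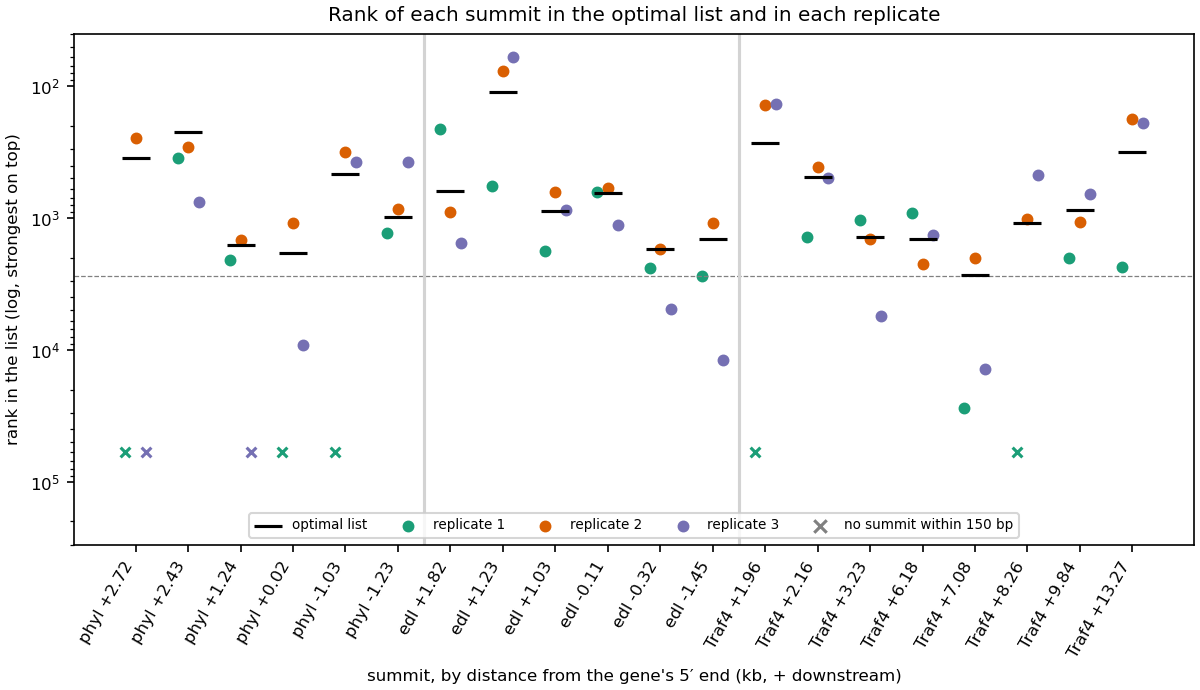
Rank of each of the 20 summits on a log scale with the strongest at the top, in the optimal list (black bars) and in replicates 1, 2 and 3 (green, orange and purple circles). Crosses mark replicates without a summit within 150 bp, the dashed line is rank 2756, and summits are named by gene and distance in kb from the 5′ end. Circles show the nearest summit within 150 bp. All 20 orange circles lie above the dashed line, and 13 green and 13 purple ones do.

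The 20 summits were spread over the ranks of the optimal list, with more in its upper part. In 4 successive blocks of 689 ranks, strongest first, they numbered 9, 4, 6 and 1. Their median rank was 876, against 1378 for the whole list. The medians by gene were 724 for phyl, 766 for edl and 973 for Traf4. No summit of the 3 genes ranked among the first 100, the best being 110 at edl.

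Neighbouring summits of a gene were 1071 bp apart at the median, and the top regions of replicates 1, 2 and 3 gave 1227, 1026 and 1283 bp. The median gap was 1043 bp at phyl, 588 bp at edl and 1186 bp at Traf4. The shortest gap at each gene, 200 bp at phyl, 201 bp at edl and 203 bp at Traf4, lay between summits listed for 1 region. Another optimal summit lay within 250 bp of 8 of the 20 summits (40%), against 6.17% of all optimal summits. Close spacing follows in part from choosing genes with many summits, so it is given as a description.

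Most of the 20 sites were intronic. Sites within 500 bp of an annotated start were counted as promoter sites first, wherever they lay in a gene. There were 11 in introns (55%), 7 at promoters (35%) and 2 in intergenic sequence (10%). No other site was in a coding exon or UTR. By position, the phyl promoter summit at 14432320 lay in the 5′ UTR of phyl, and the Traf4 promoter summits lay in the intron of its long transcript. Over the optimal list, 36.8% were intronic, 40.7% at promoters and 18.6% intergenic. Of the 7 promoter summits, 3 were near starts of noncoding genes. Counting starts of protein-coding genes alone, 4 of 20 summits (20%) were at promoters, against 37.2% of the optimal list.

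The counting rule used no E-box, but the genes, the gene lists and the motifs were chosen with earlier results of these data known. The share of summits with the E-box is therefore given as a description. The E-box was within 100 bp of 8 of 20 summits (40%), against 17.9% of all optimal summits. By gene this was 2 of 6 at phyl, 3 of 6 at edl and 3 of 8 at Traf4, and jumu had 2 of 6. Other sensory organ precursor genes had it at 3 of 4 summits (neur), 4 of 8 (pros) and 2 of 3 (chn). The counts were 2 of 2 at insb, 1 of 1 at sens, 1 of 2 at nvy and at cpo, and 1 of 3 at siz. No summit of sv, sca or mira had it. A share above 17.9% was thus not particular to phyl, edl and Traf4. Around their 20 summits, 40 windows of equal width lie 1000 bp to either side. The E-box was in 5 of them (12.5%), against 7.38% of the flanks of all optimal summits. Because the summits lie close together, 14 of these 40 flanking windows overlap the window of another optimal summit. Sites in 1 gene, and in 1 region, share their source, so the counts carry no test. Among summits that recurred without replicate 2, 4 of 10 had the E-box, and without replicate 3, 4 of 13 did (30.8%, against 15.8% of the optimal summits kept in the same way).

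The E-boxes of the 20 sites were also counted by feature, with few sites in each group, so no contrast is drawn between groups. Of the 11 intronic summits 6 had one, as did both intergenic summits, and none of the 7 promoter summits did. Over the optimal list the shares were 18.3% of intronic, 21.1% of intergenic and 15.3% of promoter summits. In 4 successive blocks of 689 ranks, strongest first, 4 of 9, 2 of 4, 2 of 6 and 0 of 1 summits had the E-box. Over the optimal list the shares in these blocks were 19.2%, 17.4%, 18.6% and 16.4%. Of the 9 E-boxes, 7 read GCAGCTG and 2 read GCAGGTG.

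Other words were sought in the same windows on both strands. Any E-box, CANNTG, was in 17 of 20 windows (85%), against 69.4% of the optimal list, and the core CAGCTG was in 45% against 19.4%. CAGGTG, which overlaps the second form above, was in 15% against 12.8%, CATATG in 5% against 7.91% and CACATG in 15% against 9.22%. The word of the early activator Zelda, CAGGTA, was in 10% against 6.82%. GAGAG, a word of the GAGA factor, was in 15% against 28.9%. None of the 20 windows held a Suppressor of Hairless word (CGTGGGAA, TGTGGGAA, CGTGAGAA or TGTGAGAA) or the ETS word CCGGAA, which 2.21% and 5.70% of the optimal windows held. At shares so low, none among 20 windows is no result. The windows had a median GC content of 45.8% (21.4% to 57.7%), against 38.8% (19.4% to 69.7%) over the optimal list, and words rich in G and C are more frequent in such sequence, an effect that was not tested.

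**Figure D4:**
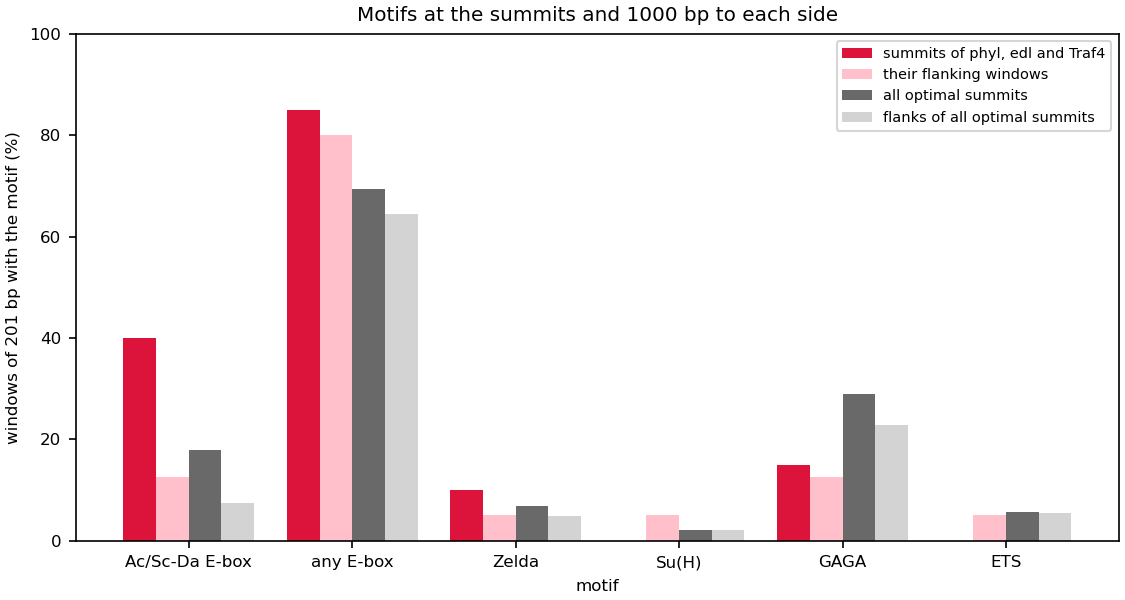
Share of 201 bp windows holding each motif in percent, at the 20 summits of phyl, edl and Traf4 (red), their 40 flanks (pink), the 2756 optimal summits (dark grey) and their 5512 flanks (light grey). The E-box of Ac or Sc with Da was in 40% of the 20 windows, against 17.9% of the optimal windows. The Su(H) and ETS words were in none of the 20, against 2.21% and 5.7% of the optimal windows, shares too low for this to be a result.

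Weaker regions surrounded the optimal ones. Within 10000 bp of the 3 genes the pooled list held 78 summits, of which 11 were at phyl, 27 at edl and 40 at Traf4, and 35 had a q value of at most 0.05. The replicate lists held 60, 74 and 74 summits there (replicates 1, 2 and 3), with 23, 42 and 38 at that q value. Over each whole list of 30000 regions, 3453, 9954 and 7898 had that q value, and these loci were chosen for their summits. In the pooled list and in each replicate Traf4, the longest gene, had the most and phyl the fewest.

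Of the pooled summits, 56 ranked below the optimal list, 5 at phyl, 19 at edl and 32 at Traf4, and 13 of them had a q value of at most 0.05. They had a counterpart in the full lists of all 3 replicates in 8 cases, of 2 in 21, of 1 in 23 and of none in 4. No share over the whole pooled list is given for these q values or counterparts. The counts therefore do not show whether weak sites were more frequent or recurred more here than elsewhere. The E-box was near 9 of the 56 (16.1%), against 10.4% of the 27243 pooled regions below the optimal list. At edl the best ranked of these, at 18667181, ranked 3171 and stood at 12855, 3304 and 2683 in replicates 1, 2 and 3. Next came 18675652, 2116 bp upstream of the start, which ranked 3298 and stood at 6510, 13096 and 543. The site at 18677881 followed at rank 3380, with 2706, 13949 and 1734 in replicates 1, 2 and 3. At Traf4 the best ranked of these, at 4372007, was 17 bp past the internal start with rank 2980, and ranked 684 in replicate 3 and 4377 in replicate 2. Beside the optimal site upstream of the internal start, Traf4 thus had a second site, weaker in the pooled list and in replicate 2. In replicate 3 the second site and the optimal one ranked nearly alike, at 684 and 658. Replicate 1 had no summit within 150 bp of the second, and the 2 pooled regions overlapped.

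Noncoding neighbours lay near many of the sites of phyl and Traf4, and protein-coding neighbours within 10000 bp of the 3 genes lay within 2000 bp of none of the 20. At phyl, 3 of the 6 summits lay within 2000 bp of lncRNA:CR45277, 1 of them inside it, and none within 2000 bp of the protein-coding neighbours Achl and L, whose ends are 2572 and 3562 bp from phyl. At edl, none of the 6 lay within 2000 bp of CG33136, 1735 bp past its 3′ end. At Traf4, lncRNA:CR45363 had 7 of the 8 within 2000 bp, and CG17612, 6 bp from the 3′ end, had none.

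Within the list of 22 sensory organ precursor genes, 14 (63.6%) had at least 1 optimal summit, with a median of 1.5, against 19.0% and a median of 0 over all protein-coding genes. These genes were listed with results of these data known, and long genes collect summits by their length, so the count is a description. Of the 15 listed genes under 20 kb, 8 had a summit, against 17.1% of all genes under 20 kb. Both the 14 and the 8 include phyl, edl and Traf4, which were chosen for their summits. Outside phyl, edl, Traf4 and neur, the short genes with summits had 1 or 2 each: sens and mira 1, insb and nvy 2. The zinc finger gene sens ranked 859 at its single summit, and insb and nvy ranked 90 and 95 at their strongest, above every summit of phyl, edl and Traf4. pros, a homeodomain gene, had 8 summits but spans 79.1 kb. Of the others, chn and siz had 3, cpo and sv 2 and sca 1, while insv, ase, scrt, ct, dpn, meru, Rsph3 and qua had none.

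Genes linked to the 3 proteins by function were counted in the same way, and no comparison is made with phyl, edl and Traf4, which were chosen for their many summits. Of 5 genes linked to phyl, ebi had 2 and neur 4, while sina, sinah and ttk, which encode the ligases and the target repressor, had none. Of 8 genes linked to edl, the ETS factors pnt and aop, which Edl binds, had 5 each, in 55.9 and 22.3 kb. Egfr, its ligand spi and Ets65A had 1 each, and rl, Ets21C and Ets97D had none. Of 11 genes linked to Traf4, the kinase gene msn had 5 in 31.7 kb, the phosphatase gene puc and the ligand gene egr had 2 each, and bsk, grnd and baz had 1 each. Traf6, hep, wgn, arm and twi had none. In all, 2 of 5, 5 of 8 and 6 of 11 partners of phyl, edl and Traf4 had a summit, against 19.0% of all protein-coding genes. Long genes collect summits by their length, and several of these partners are long. Among partners under 20 kb, 2 of 4, 1 of 3 and 4 of 8 had a summit, against 17.1% of all genes under 20 kb. No partner reached 6, a number that 0.229% of all protein-coding genes reached, so none among so few genes is no result.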

How the data were processed

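ChIP-seq peak lists from 3 biological replicates of 1 group were analysed. Per the file headers and accompanying notes, the authors made a list of 30000 regions from each replicate's alignments and a control alignment, a pooled list from all 3 replicates, and an optimal list through the irreproducible discovery rate. No caller, version or threshold is named in the sources used here. The deposited signal value, on a scale that is not stated, served only to rank regions within 1 list. The deposited −log10 of the q value was used to count regions at q of at most 0.05 and 0.01. Lists hold no read counts, so depth is unknown and no interval is given. The dm6 lists were used, and 5 dm3 lists were not used here.

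Python 3.11.15 and pandas 2.3.3 were used, with the FlyBase 6.54 annotation. Summits within 150 bp counted as shared. Features were assigned in the order promoter (500 bp), exon, intron, intergenic. Counting was tested on simulated lists. The genes, gene lists and motifs were chosen with earlier results of these data known. Genes named are the 3 genes, neighbours, listed genes and those near the threshold. Genes with 6 top regions of a replicate were named after their values were seen. Alternatives changed windows, thresholds and replicates used.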

Additional observations from a re-analysis of the deposited data

How the results depend on the processing

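Leaving out 1 replicate means keeping the optimal summits found in the top regions of both others, so positions and ranks still come from all 3. With 1 replicate left out, the summits within 2000 bp numbered 2 to 4 at phyl, 4 to 5 at edl and 4 to 6 at Traf4, against 6, 6 and 8. Within 10000 bp they numbered 2 to 4, 5 to 7 and 4 to 6, against 6, 8 and 8. In both windows each gene had its lowest number without replicate 2. The whole optimal list also kept the fewest then, 1446 of 2756, against 1703 without replicate 1 and 1668 without replicate 3. Present in all 3 replicates were 2 at phyl and 4 at Traf4. Inside the gene alone, edl had 3. Among the 1000 strongest optimal peaks, Traf4 had 4 in either window and edl had 4 within 10000 bp. Using the 1000 strongest regions of each replicate, the mean share of the 20 summits found was 45% ± 17.3 (SD, n = 3). Summits with the E-box numbered 4 to 7 with 1 replicate left out, and 17 for any CANNTG. With the 4 left in place of 8, the summits kept were 10 without replicate 2 (40%) and 13 without replicate 3 (30.8%), against 16.5% and 15.8% of the optimal summits kept. Promoter summits numbered 3 within 200 bp of a start and 4 at protein-coding starts. The cause of these changes was not tested, apart from the smaller number of summits that each stricter setting leaves. Of 58 alternatives, 37 stayed within 1.5 times the main count or within 1 SD.

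Distinct regions, region overlap and protein-coding starts were alternatives chosen after seeing the data. No paired analysis between conditions was possible because there was a single group. Depth is unknown, so a missing replicate summit does not show absence.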
